A study of Rattus norvegicus with 21 samples.

Results

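Rat astrocytes that had spent a week in serum were compared with cultures that were then taken out of serum and kept for another week in HBEGF. The groups were found by the titles of the arrays: 3 arrays of serum culture and 3 of withdrawal, 6 of the 21 arrays in the series. Every gene measured entered the comparison, 14217 in all.

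The cells of the serum, withdrawn, HBEGF and fresh P7 groups came from forebrain of Sprague Dawley rats at postnatal day 7. They were isolated by panning on the integrin ITGB5. The serum P7 cultures were grown for 7 days in MD-astrocyte medium with 10% foetal calf serum and then lysed. The withdrawn P7 cultures had the same 7 days, were washed 3 times with dPBS and were kept for 7 more days in a base medium with HBEGF. The HBEGF P7 cultures, used for comparison, never saw serum and spent 7 days in HBEGF at 5 ng/ml. A concentration for the withdrawn cultures is not given in the sources used here. For the HBEGF P7 cultures the characteristics label reads P1, but title and source name read P7, and the title was followed. Fresh P7 cells were lysed straight after panning. Another pair of groups came from P1 rats: MD cultures, made by the older McCarthy and de Vellis method in 10% serum, and HBEGF P1 cultures, panned cells grown for 7 days in HBEGF. Each group had 3 arrays, labelled as biological replicates. Serum was removed, the cells were washed, the medium was changed, HBEGF was added and a week in culture passed in the same step. The effects of these cannot be told apart.

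Healthy brain tissue keeps serum away from astrocytes behind the blood-brain barrier, so culture in serum exposes them to growth factors, lipids and proteases that they meet in the animal mainly after injury. Serum drives resting cells into division and, through actin and the transcription factor SRF, switches on contractile and matrix genes. HBEGF is a ligand of the EGF receptor and is used as a survival factor for astrocytes in serum-free medium. Reactive astrocytes, those that respond to injury or inflammation, are recognised by genes such as Lcn2, Serpina3n, Steap4 and the complement gene C3.

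The values are deposited array intensities on a log2 scale, 1 probe set per gene. A log2 change is the withdrawn mean minus the serum mean unless another pair is named, so 1 unit is a doubling. A gene was called, written below as rose or fell, at an adjusted p under 0.05 (limma, Benjamini-Hochberg over all probe sets) with an absolute log2 change of at least 1. The 3 arrays of a group limit the precision, and an exact permutation test of 3 against 3 cannot give a p under 0.1.

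The astrocyte label was checked against a list of 28 measured markers. The list mean was 10.96 to 11.18 in the serum arrays and 10.79 to 11.24 in the withdrawn arrays, below the 12.82 to 12.95 of fresh P7 cells and beside the 10.92 to 11.41 of HBEGF P7 cultures. Several defining markers were high in both groups. Gfap, the glial filament protein, was at 14.69 ± 0.07 (SD, n = 3) in serum and 14.61 ± 0.18 (SD, n = 3) in withdrawn cultures. Aqp4, the water channel of astrocyte endfeet, was at 14.11 and 14.02. Gja1, the main gap junction protein, lay at 14.54 and 14.70, and Slc1a3, the glutamate transporter GLAST, at 13.75 and 13.70. The differences of these 4 genes ran from -0.09 to 0.15, and limma gave adjusted p from 0.448 to 0.945. Itgb5, the panning antigen, was at 11.08 and 11.05. Slc1a2, the glutamate transporter GLT-1, and Grm3, a metabotropic glutamate receptor, were low, at 7.38 and 7.29 in serum and 6.14 and 5.61 after withdrawal, against 10.37 and 13.38 in fresh P7 cells.

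Some arrays stood apart. Serum replicates 1 and 2 correlated at 0.994 (Spearman, all probe sets), but replicate 3 correlated with them at 0.974 and 0.979 and with withdrawn replicate 3 at 0.981. In 474 of the 640 called genes, serum replicate 3 lay nearer to the withdrawn level than the mean of the other serum arrays did, with a median shift of 0.263. Withdrawn replicates 1 and 2 correlated at 0.994, and replicate 3 with them at 0.979 and 0.980. The HBEGF P7 arrays correlated at 0.963 to 0.977 among themselves and differed in their mean cell cycle level, at 9.14, 10.96 and 10.36. Deviations of same-numbered serum and withdrawn arrays from their group means correlated at 0.48, 0.245 and 0.533. A fit with the pair as a block was therefore made as well. It kept 632 of the 640 calls. No label gives this pairing, and replicates 1 and 2 also deviated together across numbers (0.344 and 0.318). Because the block was taken from the same arrays, its p-values are given beside the main fit and are no separate support.

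Of the 14217 genes, 319 rose after withdrawal (2.24%) and 321 fell (2.26%), 4.5% in all, and the median log2 change over all genes was 0.02. These shares are the background for every list count below. In 598 of the 640 called genes, the serum and withdrawn arrays did not overlap. Over all genes the arrays did not overlap in 4792, or 33.7%. Over all genes, 3645 (25.6%) had an unadjusted p under 0.05. The count depended on single arrays: without serum replicate 3 there were 504 rises and 450 falls, without serum replicate 2 163 and 174, and without serum replicate 1 181 and 232. Of the 640 calls, 264 were kept whichever of the 6 arrays was left out.

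**Figure D1:**
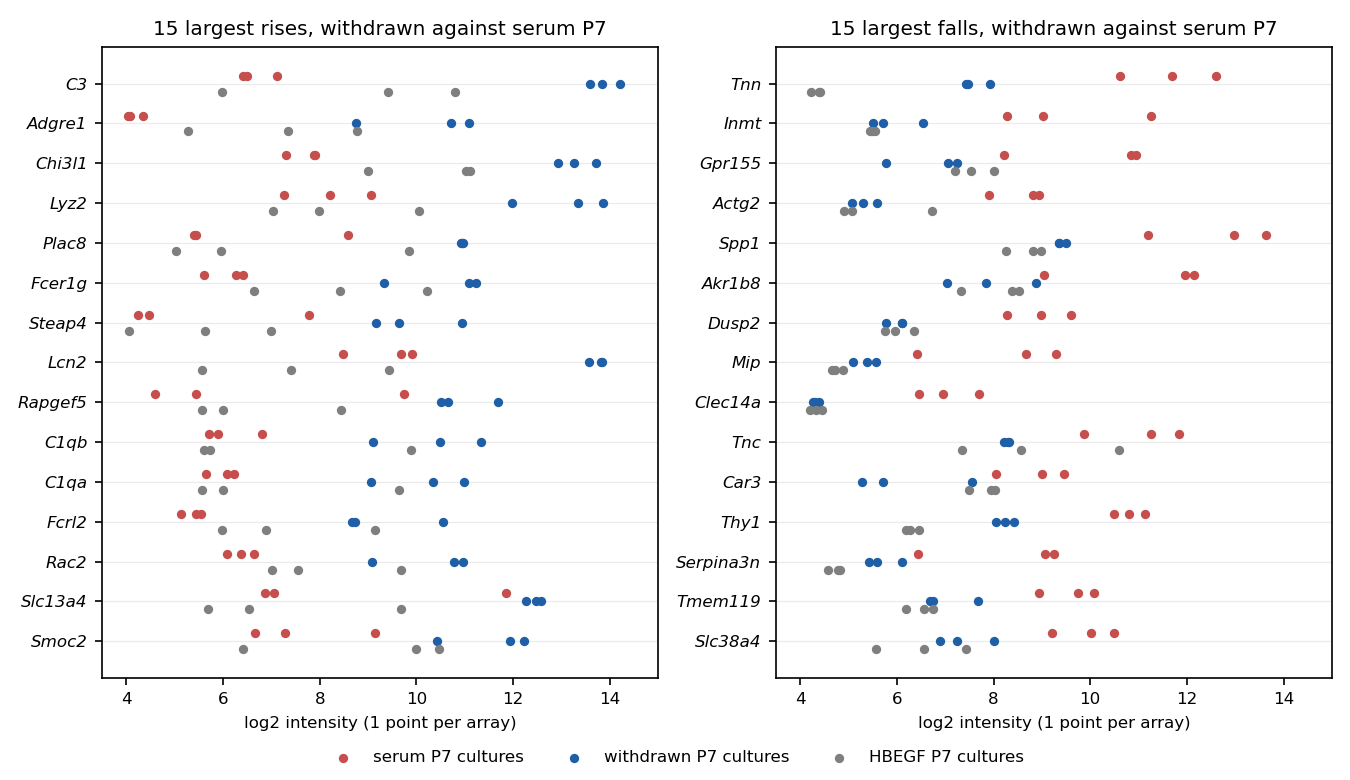
The log2 intensity of each array (1 point each) for the 15 called genes with the largest rise (left) and the 15 with the largest fall (right) whose serum P7 and withdrawn P7 arrays do not overlap. Red points are serum P7, blue points withdrawn P7 and grey points HBEGF P7 cultures; serum replicate 3 is the red point nearest to the blue ones for Steap4, Rapgef5 and Slc13a4, and the 3 grey points spread widely for many of the rises.

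The largest rise was that of C3, the central complement protein, which was at 6.49, 6.42 and 7.11 in the serum arrays and at 14.21, 13.84 and 13.59 after withdrawal. No serum array came near a withdrawn one. The log2 change was 7.21 (SE 0.78, adjusted p = 6e-05), a 148-fold difference of means, and it was called with any of the 6 arrays left out. The 3 HBEGF P7 arrays averaged 8.74 ± 2.48 and the fresh P7 cells 5.45 ± 0.24.

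Other genes of the reactive astrocyte list rose with it. Lcn2, a secreted protein that binds iron-carrying siderophores, went from 9.90, 9.67 and 8.48 to 13.84, 13.56 and 13.83, a rise of 4.39 (SE 0.64, adjusted p = 0.000662). The withdrawn arrays lay within 0.3 of each other. Steap4, a metalloreductase, went from 4.24, 4.47 and 7.78 to 9.63, 9.15 and 10.95 (4.41, SE 0.75, adjusted p = 0.00202), with serum replicate 3 well above the other serum arrays. Chi3l1, a secreted chitinase-like protein made by astrocytes in inflammation, was not on the list and went from 7.90, 7.88 and 7.30 to 13.71, 13.27 and 12.93 (5.61, SE 0.46, adjusted p = 6.19e-06). Both groups were tight and far apart.

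Of the 27 measured reactive astrocyte genes, 7 rose, 2 fell and 18 were not called, with a median change of 0.48. Besides C3, Steap4 and Lcn2 the rises held Serping1 (3.70), the inhibitor of the first complement protease, Aspg (1.85), Gbp2 (1.81), an interferon-induced GTPase, and the ferroxidase gene Cp. Serpina3n, a protease inhibitor commonly used as a marker of reactive astrocytes, went the other way, from 9.06, 9.24 and 6.44 to 5.42, 5.58 and 6.10 (-2.55, SE 0.70, adjusted p = 0.0361). Serum replicate 3 lay near the withdrawn arrays, and the call was lost without serum replicate 1 (adjusted p = 0.157), serum replicate 2 (0.186), withdrawn replicate 1 (0.114) or withdrawn replicate 2 (0.111). Gbp2 lost its call without the same 4 arrays (adjusted p from 0.0971 to 0.136). The other fall, of the elastic fibre protein Fbln5 (-1.14, adjusted p = 0.0399), was lost when any array but serum replicate 3 was left out, with adjusted p up to 0.189. With serum replicate 3 left out, 8 members rose and 3 fell, with withdrawn replicate 3 left out 6 and 1, and with any of the other 4 arrays left out 5 and 0.

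Of 10 measured complement genes, 6 rose and 4 were not called (median change 1.73). C1s, a protease of the first complement complex, went from 11.32 ± 0.13 to 13.48 ± 0.19 (2.16, adjusted p = 0.0203). Cfd, the protease of the alternative pathway, rose by 1.71 (adjusted p = 0.0258) and Cd55, a membrane inhibitor of complement, by 1.74 (adjusted p = 0.0102). The remaining rises were those of C3, Serping1 and C1qa, and these 3 were called in every fit that left out 1 array. C1s, Cfd and Cd55 were not: without serum replicate 1 they had adjusted p of 0.0555, 0.129 and 0.0606, and without serum replicate 2 of 0.0808, 0.145 and 0.0553, which left 3 members called in each case.

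The start regions of Steap4 and Lcn2 are shown because among the called members of the reactive astrocyte list they held a kappaB site, the binding sequence of the inflammatory factor NF-kappaB, within 250 bases before the start. Of 8 called members with a promoter in RefSeq (GRCr8), 2 held one on either strand, as did 2 of 16 uncalled members and 6.41% of all 27457 promoters. Capitals mark the site, which in both lies on the opposite strand. A match is a description of the letters and not evidence of binding.
Steap4: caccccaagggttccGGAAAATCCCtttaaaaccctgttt
Lcn2: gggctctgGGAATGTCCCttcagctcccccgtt
The Steap4 stretch is chr4:27054923-27054962 and the Lcn2 stretch chr3:36081998-36082030, both on the minus strand of GRCr8 and upstream of the transcript.

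Of 16 measured markers of microglia and macrophages, 9 rose, 1 fell and 6 were not called, with a median change of 2.48. Lyz2, the lysozyme of myeloid cells, went from 8.21, 7.26 and 9.05 to 13.35, 11.97 and 13.86 (4.89, SE 0.64, adjusted p = 0.000309). Fcer1g, the signalling chain of Fc receptors, went from 6.40, 5.61 and 6.27 to 11.09, 9.34 and 11.22 (4.45, SE 0.64, adjusted p = 0.000621). Withdrawn replicate 2 was the lowest of the withdrawn arrays for both, and no array overlapped.

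The 3 chains of C1q, which starts the classical complement pathway, rose by 4.15 (C1qa), 4.18 (C1qb) and 3.62 (C1qc). Tyrobp, an adaptor of myeloid receptors, rose by 3.51, the lysosomal protease Ctss by 2.89, Csf1r, the receptor on which macrophages depend for survival, by 2.49, and the lysosomal protein Cd68 by 2.47. Adgre1, an adhesion receptor of macrophages, was outside the list and went from 4.07, 4.04 and 4.35 to 10.72, 8.76 and 11.08 (6.03, SE 0.68, adjusted p = 8.01e-05). Other genes of blood cells among the 15 largest rises were Plac8 (4.47), Fcrl2 (3.94) and Rac2 (3.91), the GTPase of the phagocyte oxidase. All of these were called with any array left out but for Cd68, which had an adjusted p of 0.0616 without serum replicate 2.

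Not every myeloid marker moved. Cx3cr1, the fractalkine receptor of microglia, was at 6.64 and 6.71, Aif1, the protein IBA1, at 6.0 and 6.09, and P2ry12, a purine receptor of resting microglia, at 5.06 and 5.40, with adjusted p from 0.613 to 0.887. These lie below the median of all values, 7.11. Itgam, the integrin CD11b, was at 5.04 and 5.70 (adjusted p = 0.0579). Ptprc, the leukocyte antigen CD45, was 0.79 higher (adjusted p = 0.012), below the size needed for a call. Tmem119, used as a marker of resident microglia, fell from 9.74, 10.07 and 8.95 to 6.76, 6.68 and 7.68 (-2.55, SE 0.29, adjusted p = 9.92e-05), opposite to the rest.

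The summed intensity of the 16 markers ran from 2562 to 2995 in the serum arrays, from 8329 to 31404 in the withdrawn arrays and from 1111 to 7105 in the HBEGF P7 arrays. Whether the withdrawn dishes held more macrophages or the cells there made more of these RNAs cannot be told apart in bulk samples, and the same holds for every other cell type here. The myeloid list mean of the withdrawn arrays was 8.72, 7.73 and 9.11, lowest in replicate 2, whereas C3 was highest in replicate 1 and lowest in replicate 3. That list mean ran from 5.88 to 7.87 in the HBEGF P7 arrays and from 6.96 to 7.81 in fresh P7 cells, so both ranges reached above withdrawn replicate 2. The part of macrophages in the rise of C3, Lcn2 and the other complement genes was not tested.

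The stretch upstream of Lyz2 is shown for its PU.1 core, GAGGAA, the centre of the site of the transcription factor that directs myeloid cells. It was found on either strand in 5 of the 6 called myeloid markers with a promoter, in 3 of 4 that were not called and in 23.2% of all promoters of this length.
Lyz2: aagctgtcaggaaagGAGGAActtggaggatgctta
It lies at chr7:54798037-54798072 of GRCr8 on the minus strand, with the core in capitals.

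Chemokine and cytokine genes followed in part, with 5 of 22 rising, 0 falling and a median of 0.30, where 2.24% of all genes rose. Il1b, the cytokine interleukin-1 beta, went from 6.21, 5.86 and 5.90 to 8.33, 7.20 and 8.01 (1.85, SE 0.37, adjusted p = 0.00553), and it was called without any single array. Cxcl1, a neutrophil chemokine, rose by 2.17, Cxcl16 by 1.51, Cxcl13, a B cell chemokine, by 1.48 and Cx3cl1, the ligand fractalkine, by 1.19. Their adjusted p lay between 0.0158 and 0.036, and each was lost without at least 3 of the 6 arrays. Leaving out serum replicate 2 left 1 member called, as did leaving out withdrawn replicate 3. In the interferon and antigen presentation list, 1 of 27 rose (Gbp2), near the 2.24% of all genes that rose. Of the 27 differences, 26 were above 0 (median 0.46). In limma 6 members had an unadjusted p under 0.05, against 25.6% of all genes. Without withdrawn replicate 3, 4 members rose, without serum replicate 3 2, and without serum replicate 1 or 2 or withdrawn replicate 1 0.

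**Figure D2:**
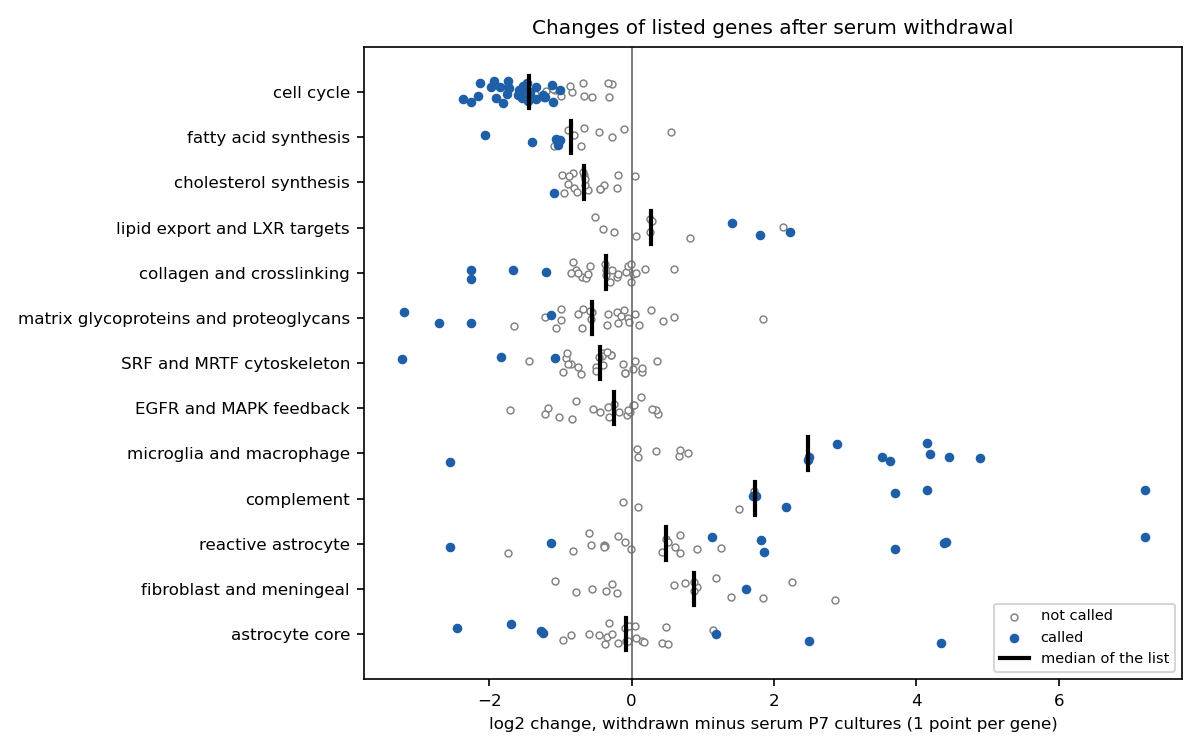
The log2 change (withdrawn minus serum P7 cultures) of each measured gene in 13 of the gene lists, 1 point per gene; filled blue points were called, open points were not, and black bars mark list medians. The cell cycle points lie below 0 throughout, with a median of -1.45, while microglia and macrophage markers and complement genes lie mainly above 0, with medians of 2.48 and 1.73.

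Genes of cell division fell together. All 46 measured cell cycle genes had a lower mean after withdrawal, 32 of them fell, 0 rose and 14 were not called, and the median change was -1.45. The spread between arrays was small: the list mean was 9.95, 10.09 and 9.93 in the serum arrays and 8.64, 8.57 and 8.63 in the withdrawn ones. The level after withdrawal was also below that of the HBEGF P7 arrays (9.14, 10.96 and 10.36) and the fresh P7 cells (10.12, 9.94 and 10.43).

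Ccna2, the cyclin of S phase and G2, went from 9.99, 10.41 and 10.14 to 7.87, 7.68 and 7.87 (-2.37, SE 0.37, adjusted p = 0.00104). Mki67, the proliferation antigen Ki-67, went from 10.49, 10.47 and 10.25 to 8.47, 8.16 and 8.20 (-2.13, SE 0.36, adjusted p = 0.0019). Both groups were tight for each gene and lay about 2 log2 units apart. Bub1 (-2.26) and Ttk (-2.16), kinases of the spindle checkpoint, and Kif20a (-1.94) and Kif2c (-1.97), motors of the mitotic spindle, fell by like amounts.

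The members that were not called included genes with large differences, such as Aurkb (-1.53), the kinase of the chromosomal passenger complex, and Prc1 (-1.36), a protein of the midzone. Others differed little: Ccnd1, the G1 cyclin that growth factors induce, by -0.28, Pcna, the clamp of DNA polymerase, by -0.33 and E2f1, a transcription factor of S phase entry, by -0.33. The number of falls was 17 without serum replicate 2, 21 without serum replicate 1, 19 without withdrawn replicate 2 and 30 without serum replicate 3, and the list median stayed between -1.37 and -1.49. The 15 measured inhibitors of the cycle held 0 rises and 0 falls in limma, with 5 at an unadjusted p under 0.05, against 25.6% of all genes, and 2 rises and 1 fall without serum replicate 3. Among them Cdkn1c, the inhibitor p57, was at 7.08, 7.67 and 12.62 in serum and at 11.72, 11.74 and 13.35 after withdrawal, with serum replicate 3 among the withdrawn values. Its difference of 3.15 had an adjusted p of 0.0803, of 0.0131 with the pair as a block and of 0.000375 without serum replicate 3. Cdkn1a, the p53 target p21, differed by -0.28 and Cdkn1b, the inhibitor p27, by 0.03.

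The promoters of Mki67, Ect2, a regulator of cytokinesis, and Kif23, a motor of the midbody, are shown because they held both elements typical of genes switched on in G2 and mitosis: the cell cycle homology region, TTTGAA, and the CCAAT box, searched on both strands in the 250 bases before the start. Of 27 called cell cycle genes with a RefSeq promoter, 8 held the first and 18 the second, against 4402 and 9416 of all 27457 promoters. Of the 10 uncalled members with a promoter, 3 and 8 did. Capitals mark the elements, with ATTGG as the CCAAT box read on the other strand. In Mki67 the second TTTGAA and the last ATTGG share 1 base.
Mki67: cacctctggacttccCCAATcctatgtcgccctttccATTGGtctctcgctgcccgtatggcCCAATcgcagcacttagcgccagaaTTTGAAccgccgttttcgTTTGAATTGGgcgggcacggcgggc
Ect2: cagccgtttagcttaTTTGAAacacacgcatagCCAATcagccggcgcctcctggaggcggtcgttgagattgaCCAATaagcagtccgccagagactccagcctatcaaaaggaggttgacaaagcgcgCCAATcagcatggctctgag
Kif23: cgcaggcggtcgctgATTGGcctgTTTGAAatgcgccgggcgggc
On GRCr8 these are chr1:199952668-199952797, chr2:111966647-111966796 and chr8:71320643-71320687, all on the minus strand. Mki67 fell by 2.13, Ect2 by 1.91 and Kif23 by 1.80.

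**Figure D3:**
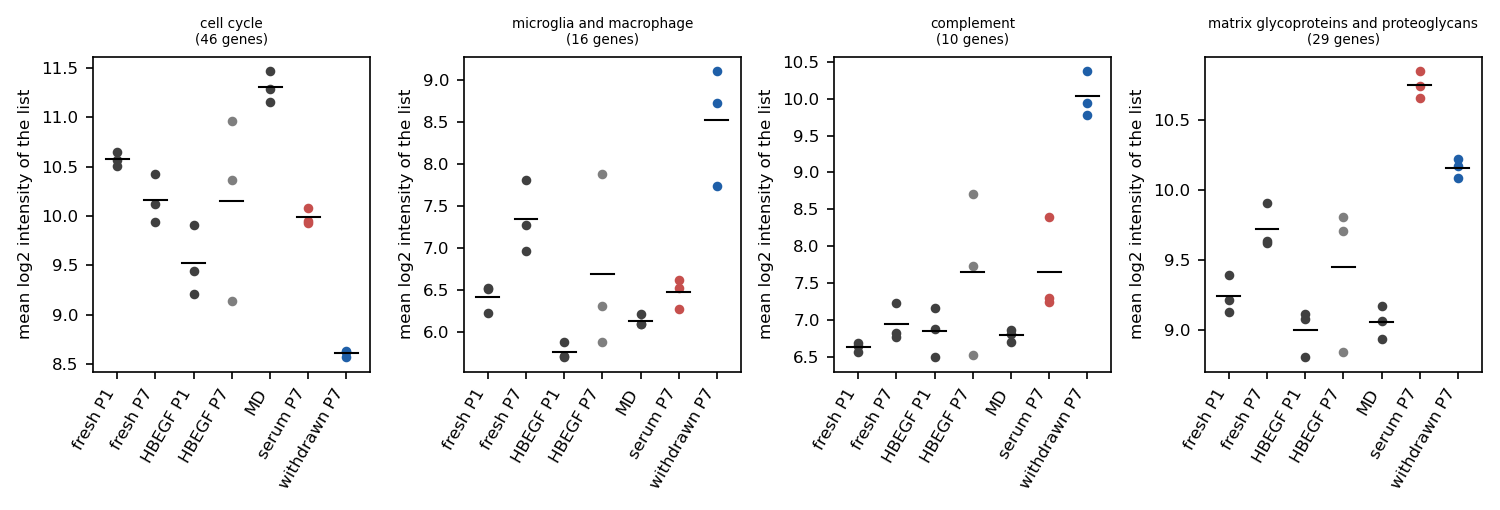
The mean log2 intensity of 4 gene lists in each array (1 point each) of the 7 groups, with a bar at the group mean; the vertical axes differ between panels and do not start at 0. Withdrawn P7 cultures (blue) have the lowest cell cycle level, between 8.57 and 8.64, and the highest complement level, while their matrix level, between 10.09 and 10.22, lies below that of serum P7 cultures (red) and above the other groups.

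Tnn, the matrix glycoprotein tenascin-W, had the largest fall, from 12.60, 11.69 and 10.61 to 7.47, 7.42 and 7.92 (-4.03, SE 0.34, adjusted p = 7.24e-06). Spp1, the secreted phosphoprotein osteopontin, went from 12.97, 13.63 and 11.20 to 9.35, 9.36 and 9.51 (-3.19, SE 0.49, adjusted p = 0.000917). For both, serum replicate 3 was the lowest serum array and still lay above the withdrawn ones. Both calls held without any single array.

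Of 29 measured matrix glycoproteins and proteoglycans, 4 fell, 0 rose and 25 were not called, with a median of -0.55. They were Spp1, Tnc (-2.71), the glycoprotein tenascin-C of developing and injured brain, Vcan (-2.26), the proteoglycan versican, and Fbln5. Tnc was at 11.84, 11.26 and 9.86 in serum and at 8.29, 8.31 and 8.21 after withdrawal, and its call was lost without serum replicate 1 (adjusted p = 0.0719) or 2 (0.0632). Vcan lost its call without serum replicate 2 (adjusted p = 0.0684). The count of falls was 1 without serum replicate 2, 2 without serum replicate 1 and 6 without serum replicate 3.

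Of 27 collagen and crosslinking genes, 4 fell and 0 rose (median -0.36). Col11a1, a fibrillar collagen chain, went from 11.43, 11.94 and 11.12 to 9.42, 9.28 and 9.01 (-2.26, SE 0.28, adjusted p = 0.000157). Col8a1, a short-chain collagen, fell by 2.26, Loxl2, an enzyme that crosslinks collagen, by 1.67 and Plod2, a lysyl hydroxylase, by 1.20. The main fibrillar collagens were not called: Col1a2 was at 14.38 and 14.02 (adjusted p = 0.708) and Col3a1 at 14.36 and 14.15 (0.902). Loxl2 lost its call without serum replicate 2, serum replicate 3, withdrawn replicate 1 or withdrawn replicate 2 (adjusted p from 0.0704 to 0.0973).

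Actg2, the smooth muscle gamma actin, led the contractile genes, at 8.82, 8.93 and 7.90 in serum and 5.29, 5.07 and 5.59 after withdrawal (-3.23, SE 0.36, adjusted p = 8.01e-05). Acta1, the actin of skeletal muscle, went from 9.71, 9.62 and 8.12 to 7.45, 7.48 and 7.00 (-1.84, SE 0.38, adjusted p = 0.00691). The arrays did not overlap for either. Pdlim7, a protein of actin fibres, fell by 1.07 (adjusted p = 0.00721), but its change was under 1 without serum replicate 1 or 2 or withdrawn replicate 3. These were the 3 falls among 28 cytoskeletal targets of SRF, with 0 rises and a median of -0.44. Cnn1, a calponin of contractile cells, was at 11.81, 11.94 and 9.70 in serum and 10.40, 9.95 and 8.75 after withdrawal and was not called (adjusted p = 0.224). Tagln, the actin-binding protein transgelin, was at 14.20 and 14.11, and Srf itself at 9.89 and 10.03. Without serum replicate 3, 6 members fell.

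A CArG box, the site SRF binds, is shown for Acta1. It was found in 1 of the 3 fallen members, in 5 of the 20 uncalled members with a promoter and in 1.5% of all promoters.
Acta1: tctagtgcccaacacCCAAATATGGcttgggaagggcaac
The stretch is chr19:68784264-68784303 of GRCr8, on the minus strand, with the box in capitals. It reads as a CArG box on both strands and was counted once.

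Among TGF-beta and BMP genes, 3 of 22 fell and 1 rose (median -0.08), where 2.26% of all genes fell and 2.24% rose. The falls were those of Ltbp1 (-2.11), which stores latent TGF-beta in the matrix, and of the ligands Tgfb3 (-1.71) and Tgfb2 (-1.13). Tgfb3 went from 10.59, 9.76 and 9.27 to 7.90, 8.0 and 8.60 (SE 0.26, adjusted p = 0.000886), and it was called with any array left out. Bmp4, a ligand that promotes astrocyte differentiation, rose from 8.56, 9.61 and 10.30 to 10.71, 11.34 and 11.85 (1.81, SE 0.51, adjusted p = 0.0402). Ltbp1 was lost without serum replicate 1 or 2 or withdrawn replicate 3 (adjusted p from 0.0649 to 0.11), Tgfb2 without serum replicate 1 or 2 or withdrawn replicate 1 (0.0534 to 0.092), and Bmp4 without serum replicate 1 or 2 or withdrawn replicate 2 or 3 (0.11 to 0.196). Without serum replicate 1 or 2, 1 fall and 0 rises remained.

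Most of the 15 largest falls belonged to none of these groups. Thy1, a surface protein of neurons and fibroblasts, went from 10.79, 11.12 and 10.48 to 8.06, 8.43 and 8.24 (-2.56, SE 0.20, adjusted p = 3.71e-06). Dusp2, a phosphatase that switches off MAP kinases, went from 8.98, 9.60 and 8.27 to 6.11, 5.77 and 6.10 (-2.96, SE 0.30, adjusted p = 2.65e-05). Both were called with any array left out. Inmt (-3.60), an indole methyltransferase, Gpr155 (-3.31), Mip (-2.77), an aquaporin best known from the lens, Clec14a (-2.71), Car3 (-2.66), a carbonic anhydrase, and the amino acid transporter Slc38a4 (-2.52) were as stable. Akr1b8 (-3.14), an aldo-keto reductase, was at 11.96, 12.16 and 9.04 in serum and 7.84, 7.03 and 8.88 after withdrawal, and its call was lost without serum replicate 1 (adjusted p = 0.0635), serum replicate 2 (0.0751) or withdrawn replicate 2 (0.0633).

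Of 14 genes that build fatty acids, 5 fell and 0 rose, with a median of -0.85. Elovl6, which lengthens saturated fatty acids, went from 10.55, 10.70 and 10.72 to 9.24, 9.17 and 9.36 (-1.40, SE 0.18, adjusted p = 0.000331). Scd, the stearoyl desaturase, went from 12.20, 12.51 and 13.79 to 9.72, 9.90 and 12.70 (-2.07, SE 0.58, adjusted p = 0.0382), with replicate 3 the highest in both groups. With the pair as a block, Scd had an adjusted p of 0.000966, and its call was lost when any array but withdrawn replicate 3 was left out (0.0511 to 0.185).

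The other falls were small: Acsl3 (-1.06), which activates fatty acids, Fasn (-1.03), the fatty acid synthase, and Acss2 (-1.01), which makes acetyl-CoA. Without withdrawn replicate 2, Acsl3 and Acss2 fell short of the size limit, at -0.97 and -0.91, and 1 of the 5 stayed called, Elovl6. Without serum replicate 2, 2 of the list fell, and without serum replicate 1 or withdrawn replicate 1, 3. Of 19 cholesterol synthesis genes, 18 had a lower mean (median -0.68) and 8 had an adjusted p under 0.05. The size limit left Cyp51, the lanosterol demethylase, as the 1 fall, from 12.67, 12.74 and 12.33 to 11.54, 11.18 and 11.76 (-1.09, SE 0.16, adjusted p = 0.000805). Without withdrawn replicate 2 it was at -0.94 and 0 members fell, without serum replicate 3 2 fell and without withdrawn replicate 3 4 did. Lss (-0.98) and Idi1 (-0.89), enzymes of the same pathway, came close to the limit.

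Apoe, the main lipid carrier that astrocytes secrete, rose from 13.11, 13.30 and 13.63 to 14.82, 14.82 and 14.62 (1.41, SE 0.12, adjusted p = 1.11e-05). Its difference from the HBEGF P7 arrays, at 14.80, was then -0.05 (adjusted p = 0.811). Pltp, a phospholipid transfer protein, rose by 2.23 (adjusted p = 0.00806). Clu, the apolipoprotein clusterin, was 1.80 higher (adjusted p = 0.045), a call lost with the pair as a block (0.0533) and without any array but serum replicate 3 (0.0676 to 0.172). These were the 3 rises among 12 genes of lipid export, and 0 fell.

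The astrocyte list itself was split. Of 28 measured markers, 3 rose, 4 fell and 21 were not called, and the median was -0.08. The shares over all genes were 2.24% and 2.26%. S100b, a calcium-binding protein of mature astrocytes, rose from 13.55, 13.58 and 12.90 to 14.72, 14.74 and 14.12 (1.18, SE 0.20, adjusted p = 0.00183). Ntsr2, a neurotensin receptor, rose from 9.84, 9.85 and 10.13 to 12.79, 12.84 and 11.67 (2.49, SE 0.61, adjusted p = 0.0191). The HBEGF P7 means were 14.51 for S100b and 12.16 for Ntsr2, 0.02 and 0.27 below the withdrawn means.

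Gjb6, the gap junction protein connexin 30, showed how far serum replicate 3 departed: it was at 3.80, 4.94 and 11.23 in serum and at 10.37, 10.50 and 12.14 after withdrawal. Serum replicate 3 overlapped the withdrawn arrays. The rise of 4.34 (SE 1.28) had an adjusted p of 0.0481, of 0.00534 with the pair as a block and of 3.85e-05 without serum replicate 3, and it was lost when any other array was left out (0.0893 to 0.236). S100b fell under the size limit without serum replicate 3 (0.96). Ntsr2 was lost without serum replicate 1 or 2 or withdrawn replicate 1 or 2 (0.0665 to 0.0829), and without any of these 4 arrays 1 of the 3 rises was called. Without serum replicate 3, 6 members fell.

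The 4 falls were those of Slc1a2, Grm3, Htra1 and Cbs. Slc1a2 went from 7.53, 7.47 and 7.16 to 6.23, 6.17 and 6.03 (-1.24, SE 0.20, adjusted p = 0.0012), further from the 10.37 of fresh P7 cells. Grm3 went from 7.25, 7.20 and 7.43 to 5.34, 5.37 and 6.11 (-1.69, adjusted p = 0.0052), against 13.38 in fresh P7 cells. Htra1, a secreted protease, fell by 2.45 (adjusted p = 0.0035) and Cbs, which makes cystathionine, by 1.28 (adjusted p = 0.0048). All 4 were called with any array left out.

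No listed gene of EGF receptor signalling was called: of 21 measured genes of the receptor, its ligands and its feedback regulators, 0 rose and 0 fell. Dusp2, the MAP kinase phosphatase among the largest falls above, was outside this list. The list median was -0.24, with 15 differences below 0 and 6 above. In limma 4 members had an unadjusted p under 0.05, against 25.6% of all genes. Without serum replicate 3, 2 members of the list fell, and without withdrawn replicate 3, 1. Egfr was at 9.32, 9.76 and 9.89 in serum and 10.09, 9.76 and 10.22 after a week in HBEGF (0.37, SE 0.26, adjusted p = 0.508), while the HBEGF P7 arrays averaged 12.17 ± 0.58. Hbegf itself was at 8.29 ± 0.98 and 7.84 ± 0.70. Etv5, a transcription factor induced by the receptor, was at 10.27, 10.10 and 8.56 in serum and 8.39, 8.01 and 7.39 after withdrawal. Its difference of -1.71 had an adjusted p of 0.0603, and of 0.0345 with the pair as a block. Dusp5, a MAP kinase phosphatase, was called with the block too (-1.22, adjusted p = 0.0626 without and 0.0474 with it). The 23 immediate-early genes, the first to answer a growth signal, held 0 calls in limma (median 0.08), with 8 at an unadjusted p under 0.05, against 25.6% of all genes. Without serum replicate 3, 2 of them rose and 1 fell.

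**Figure D4:**
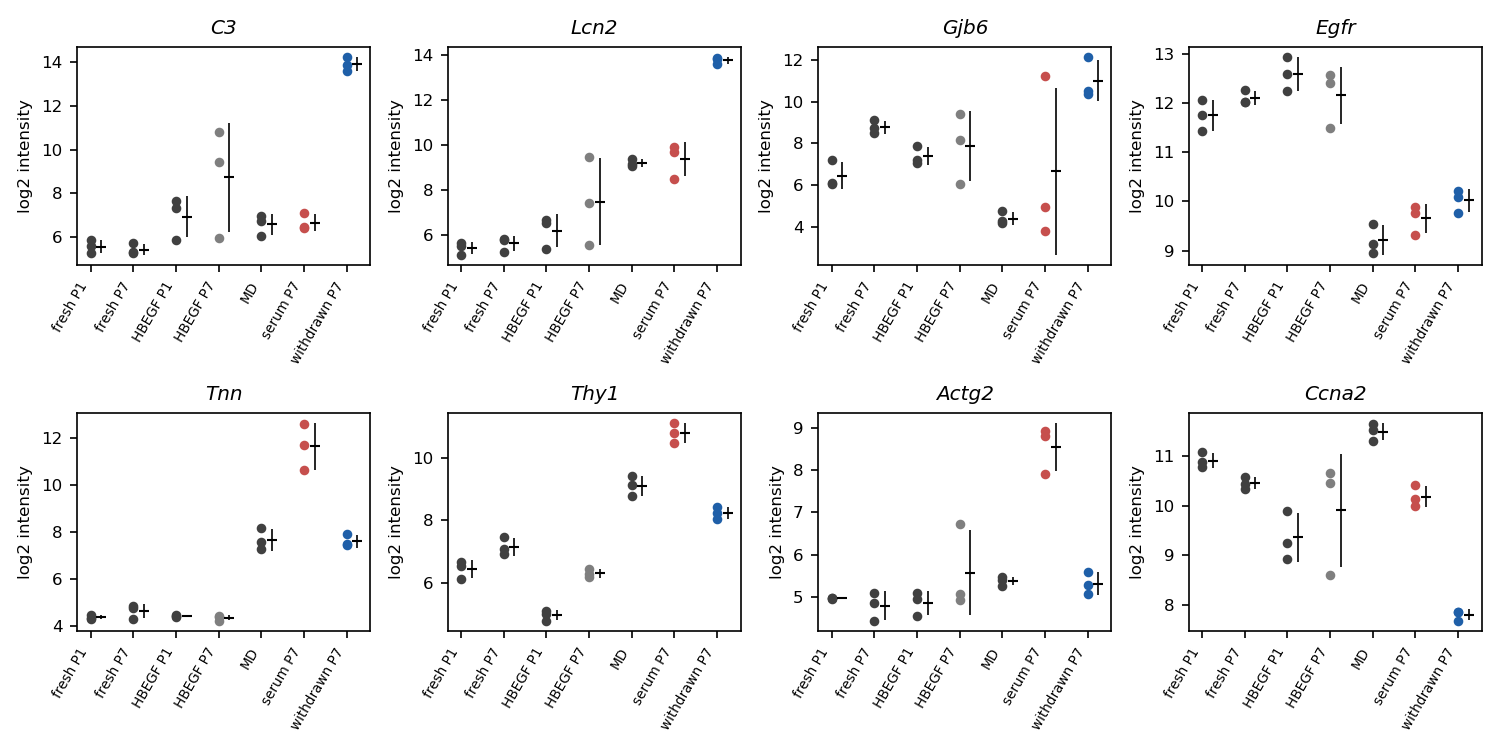
The log2 intensity of 8 genes in each array (1 point each) of all 7 groups, with a dash at the group mean and a bar of 1 SD to each side; the vertical axes differ and do not start at 0. C3 and Lcn2 are highest in withdrawn P7 cultures (blue), Tnn, Thy1 and Actg2 in serum P7 cultures (red), Ccna2 is lowest after withdrawal, and Egfr is lower in MD, serum and withdrawn cultures than in the other 4 groups; 1 serum array has Gjb6 at 11.23.

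Genes of nutrient supply and stress changed in part. Of 20 genes of the FOXO and starvation list, 4 rose and 0 fell (median 0.34), where 2.24% of all genes rose. Pik3ip1, an inhibitor of PI3 kinase, went from 8.56, 8.74 and 8.49 to 10.44, 10.37 and 9.50 (1.51, SE 0.29, adjusted p = 0.00502). Txnip, an inhibitor of glucose uptake, rose by 2.06 (adjusted p = 0.0477), Pink1, a kinase of mitochondrial quality control, by 1.14 and Pdk4, which shuts pyruvate dehydrogenase, by 1.04. Txnip was at 10.33, 10.67 and 12.95 in serum and lost its call without any array but serum replicate 3 (0.0948 to 0.216). Pdk4 lost it without serum replicate 1 or 2 or withdrawn replicate 1 or 2, and Pink1 without withdrawn replicate 2 (0.95, under the size limit), which left 1 member called without that array.

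Of 27 genes of the integrated stress response, the ATF4 programme that answers amino acid shortage, 5 fell and 1 rose (median -0.36). Of all genes, 2.26% fell and 2.24% rose. Slc7a5, the large neutral amino acid transporter, went from 11.50, 10.87 and 10.18 to 9.67, 9.38 and 8.71 (-1.60, SE 0.33, adjusted p = 0.00763), called with any array left out. Mthfd2 (-1.95) and Aldh1l2 (-1.47), enzymes of mitochondrial folate metabolism, Ddit4 (-1.28), an inhibitor of mTOR, and Gpt2 (-1.23), an alanine transaminase, fell, and the stress protein gene Nupr1 rose by 2.37 (adjusted p = 0.0312). These 5 were each lost without serum replicate 1 or 2, and then 1 fall and 0 rises remained. Fkbp5, a chaperone induced by glucocorticoids, fell from 11.99, 11.97 and 11.83 to 10.48, 10.35 and 11.02 (-1.31, SE 0.24, adjusted p = 0.004), whereas Hsd11b1, which regenerates active glucocorticoid, rose by 1.53 (adjusted p = 0.00347).

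Markers of cells other than astrocytes and macrophages were checked as well. Fibroblast and meningeal genes were high in both groups: the list mean was 10.46, 10.89 and 12.16 in the serum arrays and 11.61, 11.87 and 12.12 in the withdrawn ones, against 10.30, 8.54 and 10.77 in HBEGF P7 and 8.19 to 9.13 in fresh P7 cells. Of 17 measured genes 1 rose, Fbln1 (1.61, adjusted p = 0.0211), and 0 fell, with a median of 0.87. Serum replicate 3 was again the highest serum array, and without it 6 members rose, with a median of 1.43. Without serum replicate 1 or 2 or withdrawn replicate 2 or 3, 0 members rose, Fbln1 having adjusted p from 0.059 to 0.112. The summed intensity of this list ran from 74784 to 136353 in serum and from 93072 to 133999 after withdrawal.

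Serum replicate 3 was also the highest serum array for several single genes. Slc13a4, Rapgef5 and Smoc2 are outside the list and among the 15 largest rises. Aldh1a2 is a member of the list and was picked after its values were seen. Slc13a4, a sulphate transporter, was at 6.86, 7.06 and 11.85 in serum and 12.27, 12.57 and 12.48 after withdrawal (3.85, SE 1.07, adjusted p = 0.0364), and its call was lost when any array but serum replicate 3 was left out (0.074 to 0.189). Aldh1a2, a list member that makes retinoic acid, was at 8.80, 9.75 and 13.17 in serum and 12.36, 12.90 and 13.21 after withdrawal (2.25, adjusted p = 0.102), and was called with the pair as a block (0.0345) and without serum replicate 3 (0.000804). Rapgef5, an exchange factor of small GTPases, had the same pattern over arrays, at 4.60, 5.45 and 9.74 in serum and 10.52, 10.65 and 11.69 after withdrawal. It rose by 4.36 (adjusted p = 0.0088) and lost its call without serum replicate 1 (0.0547) or 2 (0.0606). Smoc2, a secreted matrix protein that rose by 3.84 (adjusted p = 0.0106), lost it without serum replicate 1 (0.0614), serum replicate 2 (0.0567) or withdrawn replicate 2 (0.056). The part of meningeal cells in the apartness of serum replicate 3 and in these genes was not tested.

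Of 19 neuronal genes 2 fell and 0 rose (median -0.12): Gap43, a growth cone protein, at -1.18 (adjusted p = 0.0484, and 0.0527 with the pair as a block) and Slc17a6, a vesicular glutamate transporter, at -1.19. The share of falls over all genes was 2.26%. Gap43 was lost when any single array was left out (0.0567 to 0.203), and Slc17a6 without serum replicate 1 or 2 or withdrawn replicate 1 (0.0703 to 0.095). Of 11 endothelial genes 2 rose and 0 fell (median 0.14), Slco1a4 (3.06), an organic anion transporter that astrocytes also express, and Tek (1.67), the angiopoietin receptor. Differences were above 0 in 8 of the 11 and below 0 in 3. In limma 7 had an unadjusted p under 0.05, against 25.6% of all genes. The summed intensity of this list ran from 1021 to 2254 in serum and from 2468 to 4193 after withdrawal. Pecam1 and Cldn5, other members of the list, were at 4.33 and 4.47 and at 5.02 and 5.03. Of 10 mural cell genes 1 fell, Des (-1.21), the muscle filament desmin, which was not called without serum replicate 1 or 3 or withdrawn replicate 1 or 2. The lists of oligodendrocyte progenitors (6 genes), oligodendrocytes (10) and Schwann and ependymal cells (6) held 0 calls in limma, with 2, 3 and 3 genes at an unadjusted p under 0.05 (25.6% of all genes) and medians of 0.11, 0.00 and 0.96. With the pair as a block, Olig1, a transcription factor of the oligodendrocyte lineage at 12.32, 12.21 and 8.50 in serum and 10.22, 9.59 and 7.81 after withdrawal, was called lower (-1.80, adjusted p = 0.225 without and 0.0314 with the block), and Lhfpl3 higher (1.48, 0.0909 and 0.0105).

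The withdrawn cultures were also set against cultures that had never met serum. Withdrawn cultures had 7 days in serum and then 7 in HBEGF, and HBEGF P7 cultures had 7 days in HBEGF alone. Earlier serum, the medium it was given in and longer time in culture therefore cannot be told apart here. Withdrawn minus HBEGF P7 cultures gave 894 genes higher (6.29%) and 770 lower (5.42%), and serum minus HBEGF P7 cultures gave 686 higher (4.83%) and 636 lower (4.47%), which is 11.7% and 9.3% of genes in either direction. These comparisons share arrays with the first one and with each other, so their values are set side by side. Some genes that fell were no longer called against HBEGF P7 cultures: the difference of withdrawn minus HBEGF P7 was -0.26 for Actg2 (adjusted p = 0.638), -0.03 for Dusp2 (0.957), 0.43 for Inmt (0.568) and 0.72 for Spp1 (0.298). Their serum minus HBEGF P7 differences were 2.97, 2.93, 4.03 and 3.91. A p above the threshold does not show that the levels are the same, and for Actg2 the HBEGF P7 arrays had an SD of 1.01.

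Others fell on withdrawal and stayed above the HBEGF P7 level. Tnn was 7.29 higher in serum than in HBEGF P7 cultures and still 3.26 higher after withdrawal (adjusted p = 9.73e-06). Thy1 went from 4.50 to 1.94 above the HBEGF P7 level (adjusted p = 8.32e-06) and Fbln5 from 3.20 to 2.06 (0.000308). Krt19, a keratin, and Ccn3, a matricellular protein, differed little between serum and withdrawn arrays (0.37 and 0.79) and were 5.16 above HBEGF P7 cultures in the withdrawn arrays for both genes. Cdh1, the adhesion protein E-cadherin, was at 5.87 ± 1.01 in HBEGF P7, 8.65 ± 0.80 in serum and 11.07 ± 0.92 in withdrawn cultures, each step being a rise (2.77 and 2.42).

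The genes furthest below HBEGF P7 cultures after withdrawal were low in serum as well. Spon1, a secreted matrix protein, was at 12.05 ± 1.04 in HBEGF P7, 6.26 ± 0.64 in serum and 6.80 ± 0.47 in withdrawn cultures. Olfm3, an olfactomedin, was at 10.20, 5.82 and 5.32, Sox3, a transcription factor of neural progenitors, at 10.19, 6.56 and 5.82, and Rlbp1, a retinal-binding protein, at 10.32, 5.95 and 6.09. All 4 were more than 4 log2 units below HBEGF P7 cultures after withdrawal (limma adjusted p at most 7.6e-06). By list, collagen and crosslinking genes had 21 of 27 members higher in serum than in HBEGF P7 cultures and 16 higher after withdrawal. Cell cycle genes had 1 of 46 lower in serum and 39 lower after withdrawal, and complement genes 0 of 10 higher in serum and 8 after withdrawal.

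The MD and HBEGF P1 cultures share no array with the withdrawal comparison. They differ from each other in serum, but also in HBEGF and in how the cells were prepared, and the effects of these cannot be told apart. MD minus HBEGF P1 cultures gave 1253 genes higher (8.81%) and 1360 lower (9.57%), 18.4% in all. Of the 321 genes that fell on withdrawal, 196 were higher in MD cultures, which is 61.1% of the falls and 15.6% of the genes higher in MD. Another 27 falls were lower in MD. Of the 319 rises, 76 were lower in MD cultures (23.8% of the rises, 5.59% of the genes lower in MD) and 17 were higher. Across genes, which are not independent replicates, the log2 changes of both comparisons correlated at -0.309 (Pearson) and -0.295 (Spearman) over 14217 genes.

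Of the 46 cell cycle genes, 42 were higher in MD cultures (median 1.93). Spp1 was 5.21 higher in MD cultures, Tnc 3.79, Tnn 3.24 and Thy1 4.14, and 21 of 28 SRF targets were higher. Acta1 was 5.73 higher, whereas Actg2 (0.52), Dusp2 (0.06) and Clec14a (0.11), which fell on withdrawal, did not differ by enough to be called. Of the largest rises, C3 differed by -0.36 (adjusted p = 0.753), Lyz2 by 0.52 (0.557) and Adgre1 by -0.13 (0.898). Lcn2 was higher in MD cultures (2.99) as well as after withdrawal, and so was Cxcl1 (6.37). Smoc2 was 3.78 lower in MD cultures and Pik3ip1 2.96 lower, opposite to their rise on withdrawal.

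**Figure D5:**
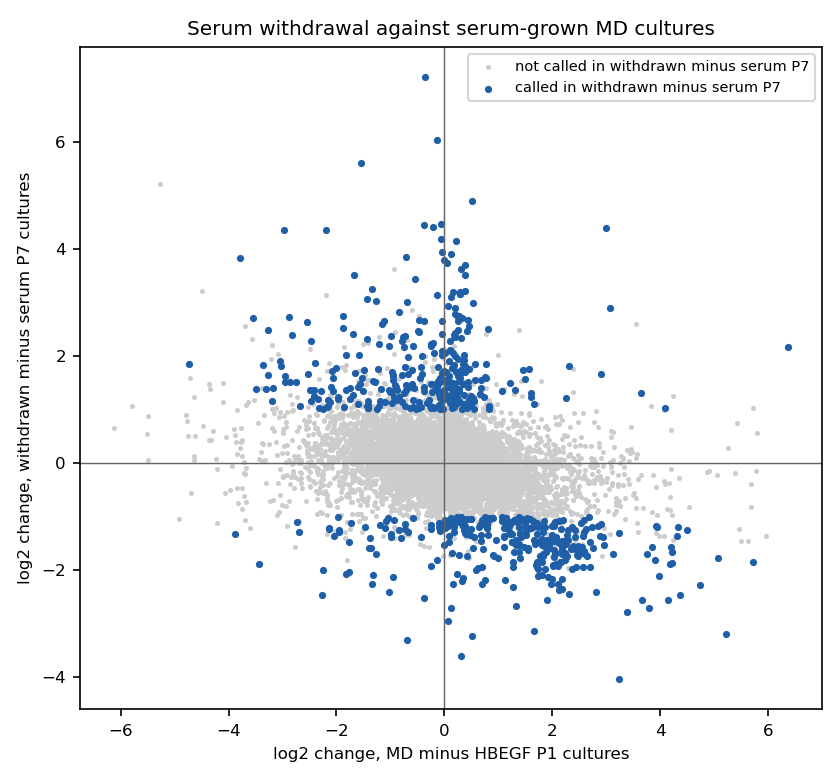
For each gene (1 point), the log2 change of MD minus HBEGF P1 cultures (horizontal) against that of withdrawn minus serum P7 cultures (vertical); blue points were called in the latter, grey points were not. Of the 321 called falls in the lower part, 196 were higher in MD cultures, while many of the largest rises, C3 and Adgre1 among them, lie near 0 on the horizontal axis.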

How the data were processed

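RNA was labelled with the 3' IVT Express kit and hybridised to Affymetrix rat expression arrays, per the labels' protocols. For every array the authors deposited an intensity for each probe set. The submitters' processing notes name RMA, of which the sources used here give no version or chip definition. Linear values (10.0 to 37801, array medians of 128 to 146) were found in the deposited table and were log2 transformed. Of 31042 probe sets, 20826 carried 1 gene symbol, 436 several and 9780 none. A gene was represented by its probe set with the highest mean, and 4525 of 14217 genes had more than 1.

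Groups were compared with limma 3.58.1 (R 4.3.3; lmFit, contrasts.fit, eBayes) in 1 model of 7 group means over 21 arrays, with 14 residual and 2.89 prior degrees of freedom. The code was tested on simulated data first. The labels do not say whether replicate numbers pair cultures. The pairing used for the block rests on the data: same-numbered serum and withdrawn arrays deviated together (correlations of 0.48, 0.245 and 0.533), although replicates 1 and 2 did so across numbers too (0.344 and 0.318). Promoters came from RefSeq (GRCr8).

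The comparison, its gene lists (46 lists, 878 of 964 entries measured) and the rule for named genes were chosen with earlier results of these data known: the 15 largest rises and 15 largest falls without overlap, up to 6 called members per list, 6 genes per direction against HBEGF P7 cultures, and whole lists for some. Other genes in the text are list members named after their values were seen. Alternatives tried were other sets of arrays, blocks, normalizations, an added 16, a filter on dim probe sets, averaged probe sets, other priors, weights, a stricter test and leaving out each array.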

Additional observations from a re-analysis of the deposited data

How the results depend on the processing

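The numbers of calls depended on the settings, and small differences could also change sign. The median of the neuronal list, for example, was -0.12 in the main fit and 0.07 without serum replicate 3. For withdrawn against serum cultures, rises numbered 163 to 504 and falls 174 to 450 when 1 array was left out. They numbered 203 rises with only the arrays of both groups, 188 rises with probe sets above the median level, 623 rises and 545 falls with array weights, and 67 rises and 60 falls when tested against a change of 0.5. Cell cycle falls were 17 to 30 without 1 array and 6 in the test against 0.5, and 4 myeloid markers rose among probe sets above the median level, where fewer genes are tested. With the pair of serum and withdrawn arrays as a replicate block (chosen after seeing the data) there were 392 rises and 354 falls, and with replicate number as a block over all arrays 354 and 344. Of 124 called genes named, 121 kept their call in the paired fit and 67 without any 1 array. Against HBEGF P7 cultures, withdrawn cultures had 464 genes higher and 431 lower with only both groups' arrays, 258 and 232 with the block added, 421 and 443 in the test against 0.5, and 595 higher among probe sets above the median level; serum cultures had 400 and 362, 281 and 265, and 379 and 313 in the first 3 of these settings. The cause of these differences was not tested. The other alternatives kept all these counts within 1.5 times. RMA intensities carry no detection call here, so low values have an unknown background.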

Other observations

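Several gene groups that a change of medium might touch held 0 calls. Glycolysis and lactate genes had 0 of 21 called (median -0.18): Ldha, the lactate dehydrogenase of muscle type, differed by -0.37 and Slc2a1, the glucose transporter GLUT1, by -0.18. Mitochondrial oxidation (18 genes, median 0.03), the unfolded protein response (15, -0.07), p53 targets and death genes (17, -0.01) and progenitor and Notch genes (19, 0.02) also held 0 calls in either direction. At an unadjusted p under 0.05 (limma) there were 5, 5, 4, 3 and 1 genes in these 5 lists, in the order given, against 25.6% of all genes. Hspa5, the chaperone BiP, differed by 0.02.

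Of 13 secreted factors that act on synapses, 1 rose and 2 fell (median 0.05), where 2.24% of all genes rose and 2.26% fell. Thbs4, a thrombospondin, rose from 5.78, 6.10 and 5.65 to 10.30, 9.10 and 8.43 (3.43, SE 0.52, adjusted p = 0.000916), while Wnt5a, a Wnt ligand, fell from 8.27, 8.66 and 8.99 to 6.81, 7.22 and 7.84 (-1.35, adjusted p = 0.00302). Bdnf, a neurotrophin, was the other fall (-1.11, adjusted p = 0.0396), lost when any array but serum replicate 3 was left out (up to 0.209), and without serum replicate 3, 4 members fell. Scg2, a granin of secretory vesicles, rose from 7.85, 7.42 and 5.98 to 9.91, 10.28 and 9.76 (2.90, adjusted p = 0.00664). Itgb4, the integrin chain of hemidesmosomes, rose from 6.41, 6.51 and 8.91 to 9.78, 10.44 and 11.23 (3.20, adjusted p = 0.00104). S100a1, a relative of S100b, rose by 1.64 and Kcnd3, a potassium channel subunit, by 1.48. These genes other than Bdnf were called with any 1 array left out. Adamts1, a protease that cuts proteoglycans, fell by 1.80 (adjusted p = 0.00115) and Mmp11, a matrix metalloprotease, rose by 1.13 (adjusted p = 0.00649).

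Of 10216 probe sets with several gene symbols or none, 71 were higher and 91 lower after withdrawal (1.59% together). They were counted and not named.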
